A study of Oryza sativa with 8 samples.

Results

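The response of the rice leaf sheath to salt was taken from the leaf sheath samples of the series, 2 salt samples (LSS1, LSS2) against 2 control samples (LSC1, LSC2), which are 4 of the 8 samples sequenced. Oryza sativa plants were grown in hydroponics. The salt group was labelled as salt stress, with 100 mM NaCl applied for 24 h, and the control group as control. The labels name no variety, plant age or leaf position, and they do not say whether both samples of a group are from separate plants. If they are not, the authors' p-values measure only technical spread. Every row of the sheath table was used, 1998 genes in all.

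A grass leaf has a blade that carries most of the photosynthesis and a sheath that wraps the stem below it. The sheath carries water and sugars, stores starch, and in rice under salt it can hold sodium back from the blade. Salt stress lowers water uptake and brings sodium into the tissue. Plant cells are known to answer with abscisic acid, protective late embryogenesis abundant (LEA) proteins, chaperones and antioxidant enzymes, and to slow growth.

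The authors' deposited table gives each gene 1 level per group, in a unit it does not name, and no level per sample. No SD and no overlap between samples can therefore be shown, and sheath library depth is unknown. Change here means the log2 ratio of the salt level to the control level, with 1 added to each. The spread given with it is the deposited standard error of the fold change that the authors tested. The two-sided normal p of their statistic equals their listed p within rounding. Their adjusted p-values behave as Benjamini-Hochberg values over 31943 tests (median, quartiles 31740 and 32145). That number was close to the same from the top 200 genes (32024) to ranks 1001 to 1500 (31958), so no gap was seen at any 1 part of the ranked list. Genes left out evenly over the ranks would not show in this, and the number tested would then be higher. The largest listed p was 2.8e-04. The 1998 genes were thus 6.25% of about 31943 tested, with 2.85% higher and 3.4% lower with salt. A gene outside the table either missed that limit or was not tested, and has no value here. Leaf tissue markers could not be checked as levels for that reason. None of the 4 shoot meristem, 4 blade mesophyll and 3 root marker genes looked up was listed as changed in the sheath.

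With salt, 911 listed sheath genes were higher and 1087 lower, but the rises were steeper than the falls. The median change was 0.95 among the higher genes and -0.89 among the lower ones. A rise of at least 1 was seen in 415 genes and a fall of at least 1 in 346. Past a change of 2 the balance was 87 higher against 4 lower, and past 3 it was 20 against 0. Below 1.5 the balance was different: 241 genes were higher and 316 lower between 1 and 1.5, 250 higher and 503 lower between 0.75 and 1, and 242 higher and 238 lower between 0.5 and 0.75. Ranked by the authors' statistic, the 50 strongest genes were all higher, 92 of the first 100 were higher and 285 of the first 500 were higher. The highest change belonged to Os11g0211800, whose level in the authors' deposited table was 338.5 with salt and 6.63 in control (change 5.48, standard error 0.21, adjusted p = 6.2e-151). The lowest belonged to Os10g0334500, at 0.85 with salt and 10.1 in control (change -2.58, standard error 0.63, adjusted p = 1.8e-06, from the authors' deposited table). The counts past 2 and 3 and the lowest gene depend on the 1 added, which shrinks changes at low levels. By the tested fold change, the statistic times its standard error, Os10g0334500 was at -3.52 and CYP99A3 at -4.84. Rises were the steeper on that scale too. The 95th percentile of the higher genes was 3.69 and the 5th percentile of the lower ones -1.61.

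**Figure D1:**
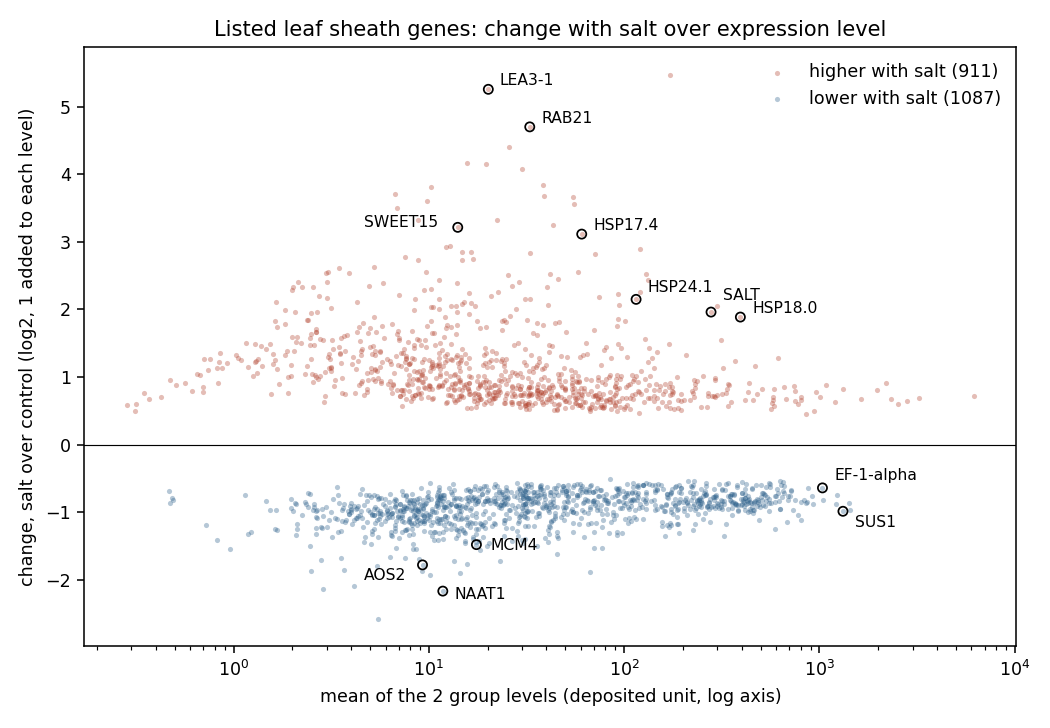
Each point is 1 of the 1998 listed leaf sheath genes, with the mean of its salt and control levels on a log axis and its change, salt over control, on the log2 scale. With 1 added to each level, the 911 higher genes reach 5.48 and the 1087 lower genes -2.58. The empty band around 0 is where genes missed the authors' limit. Circles mark 12 named genes.

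The listed genes of DNA replication and cell division were all lower with salt. The division list, chosen with earlier results of these data known, held 8 genes. All 8 were listed and lower, with a median change of -1.25. Of all genes tested 6.25% were listed, and 54.4% of the listed genes were lower. A wider set of cyclins and replication enzymes was put together after the values had been seen. With it, 22 of 33 genes were listed, 22 of 22 were lower, the median change was -1.22 and the range ran from -0.91 to -1.48. For comparison, the median over all lower genes was -0.89. Of these 22 genes, 18 fell by at least 1, against 346 of 1087 lower genes in all. None of the 33 genes was in the authors' deposited blade table, which holds 4623 genes. For comparison, 20.6% of all lower sheath genes were in it. A gene outside it has no value for the blade, so nothing is read from that absence. In RNA from whole sheaths, fewer cells of a type and less RNA per cell cannot be told apart.

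The MCM proteins, which form the helicase ring that opens DNA at replication origins, were listed in full. The authors' deposited table gave MCM4 a level of 8.77 with salt and 26.3 in control (change -1.48, standard error 0.23, adjusted p = 1.2e-09). MCM2 stood at 7.91 with salt and 22.9 in control, and MCM3 at 9.37 with salt and 26.9 in control, by the same deposited table. With salt, MCM5, MCM6 and MCM7 stood at 8.80, 6.05 and 5.39 in the authors' deposited table, against 24.8, 16.4 and 15.98 in control. The 6 changes lay between -1.30 and -1.48, a narrower range than any 1 of their standard errors, which were 0.22 to 0.24. ORC1, part of the complex that marks origins, changed by -1.28 and was at 3.48 with salt and 9.86 in control in the authors' deposited table.

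Factors that act at the replication fork moved with them. PCNA, the sliding clamp of the DNA polymerases, was the division gene with the highest level, at 51.7 with salt and 132.5 in control (change -1.34, standard error 0.20, adjusted p = 5.6e-09, from the authors' deposited table). The single-strand binding proteins RPA70B and RPA32A changed by -1.40 and -1.16. The polymerase delta subunits POLD1 and POLD2 changed by -0.92 and -1.07, and the flap endonuclease gene FEN1A by -0.91. Among the kinases and cyclins that drive mitosis, CDKB2 changed by -1.21 and CDKB1 by -0.94. CYCB2-2 had the largest fall of the cyclins, at 10.4 with salt and 30.2 in control (change -1.45, standard error 0.22, adjusted p = 1.6e-09, from the authors' deposited table). CYCB2-1, CYCA2-1, CYCB1-5 and CYCA3-1 changed by -1.17, -1.14, -1.10 and -0.95.

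The listed members of a chosen set of ribosomal protein genes were lower as well, at levels far above those of the replication genes. A set of 19 genes for ribosomal proteins and the elongation factor EF-1-alpha was put together after the values had been seen. Of these, 17 were listed (89.5%, against 6.25% of all genes tested) and 17 of 17 were lower. The range was narrow, from -0.61 to -0.93 with a median of -0.81. Ribosomal protein genes outside this set were not counted, so these values describe the chosen members only. No member fell by 1. Their mean levels ran from 148.0 to 1233, and 13 of the 17 lay at 300 or more. Summed over the 17 genes, the level was 6880 with salt and 11800 in control. The authors' deposited blade table held 10 of the 19, all 10 of them higher with salt, at log2 fold changes between 0.23 and 0.39. The blade list rests on its own controls, another test and another limit, so the size of the changes was not compared.

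RPS21 had the highest level of the set, at 919.1 with salt and 1547 in control (change -0.75, standard error 0.14, adjusted p = 5.9e-06, from the authors' deposited table). EF-1-alpha, which brings transfer RNA to the ribosome, stood at 809.0 with salt and 1262 in control (change -0.64, standard error 0.14, adjusted p = 1.7e-04, from the authors' deposited table). RPL5B was at 647.7 with salt and 1199 in control, and its neighbour RPL5A at 169.1 with salt and 303.9 in control, in the authors' deposited table. Their changes were -0.89 and -0.84. The pairs RPL7A-1 and RPL7A-2 (-0.74 and -0.88) and RPS27AA and RPS27AB (-0.81 and -0.77) also fell together. Members of such pairs are close copies, and how the authors' counting split reads between them is not given in the sources used here, so the value of each single copy is uncertain.

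Heat shock genes went the other way. A set of 52 genes was widened after the values had been seen. It held heat shock factors, small heat shock proteins, larger chaperones, and PDIL1-1 and BZIP50, neither of which was listed. Of all genes tested 6.25% were listed, and 45.6% of the listed genes were higher. Of the 52, 23 were listed, 22 higher and 1 lower. Their median change was 1.48, against 0.95 over all higher genes. Of these genes, 17 changed by at least 1. Small heat shock proteins, which hold unfolding proteins in solution, had 11 of 22 members listed, 11 of 11 higher. HSP17.4 had the largest rise, at 109.5 with salt and 11.8 in control (change 3.11, standard error 0.19, adjusted p = 8.5e-60, from the authors' deposited table). HSP18.0 had the highest level, 620.3 with salt and 167.0 in control (change 1.89, standard error 0.15, adjusted p = 1.8e-32, from the authors' deposited table). HSP18.6, HSP18.1, HSP16.0 and HSP24.1 rose by 2.74, 2.56, 2.45 and 2.15. At the low end were HSP17.7 with a change of 0.97 and HSP17.9A with 1.03. The genes HSP17.4, HSP18.1, HSP17.7 and HSP17.9A sit in a cluster of near copies on chromosome 3, so reads may be shared among them.

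The listed larger chaperones and heat shock factors were also mostly higher. HSP101, which pulls proteins out of aggregates, was at 17.79 with salt and 2.80 in control (change 2.31, standard error 0.29, adjusted p = 1.4e-21, from the authors' deposited table). HSP81-1, of the HSP90 family, was at 158.5 with salt and 43.9 in control (change 1.83, standard error 0.15, from the authors' deposited table), and HSP81-2 of the same family changed by 0.47. BIP1, the chaperone of the endoplasmic reticulum, changed by 0.73. Of 23 heat shock factor genes, 7 were higher and 1 was lower. HSFA2A rose by 2.16 (the standard error, 0.63 by the authors' deposited table, was wide), HSFB2C by 1.82 and HSFA2C by 1.73. The lower one was HSFA3, at 86.6 with salt and 146.1 in control (change -0.75, standard error 0.17, adjusted p = 4.8e-04, from the authors' deposited table), which was the factor gene with the highest level.

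**Figure D2:**
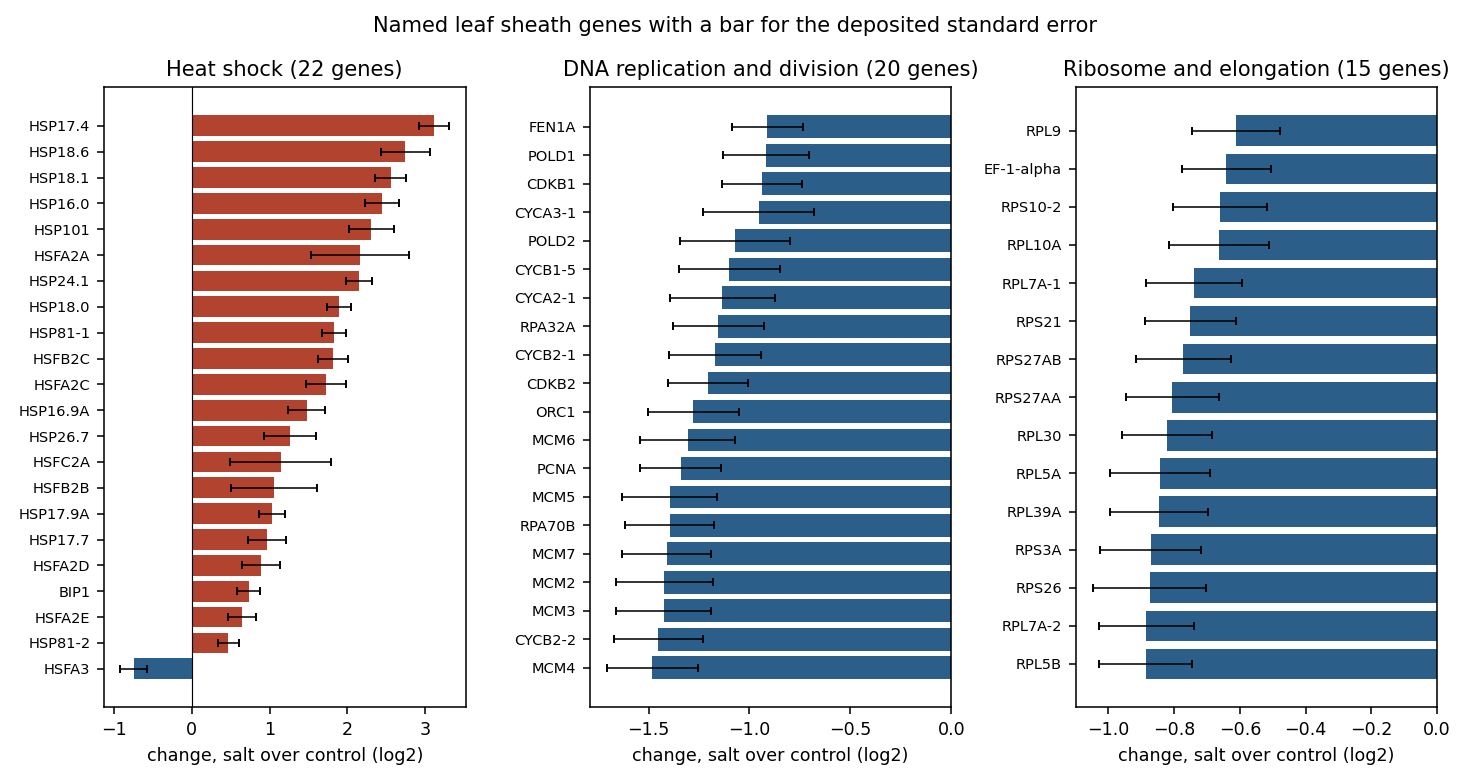
Bars show the change of each named leaf sheath gene, salt over control, on the log2 scale, and whiskers show plus and minus 1 deposited standard error. Among 22 heat shock genes HSFA3 alone is lower, at -0.75, while all 20 replication and division genes and all 15 genes of the ribosome and elongation are lower.

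**Figure D3:**
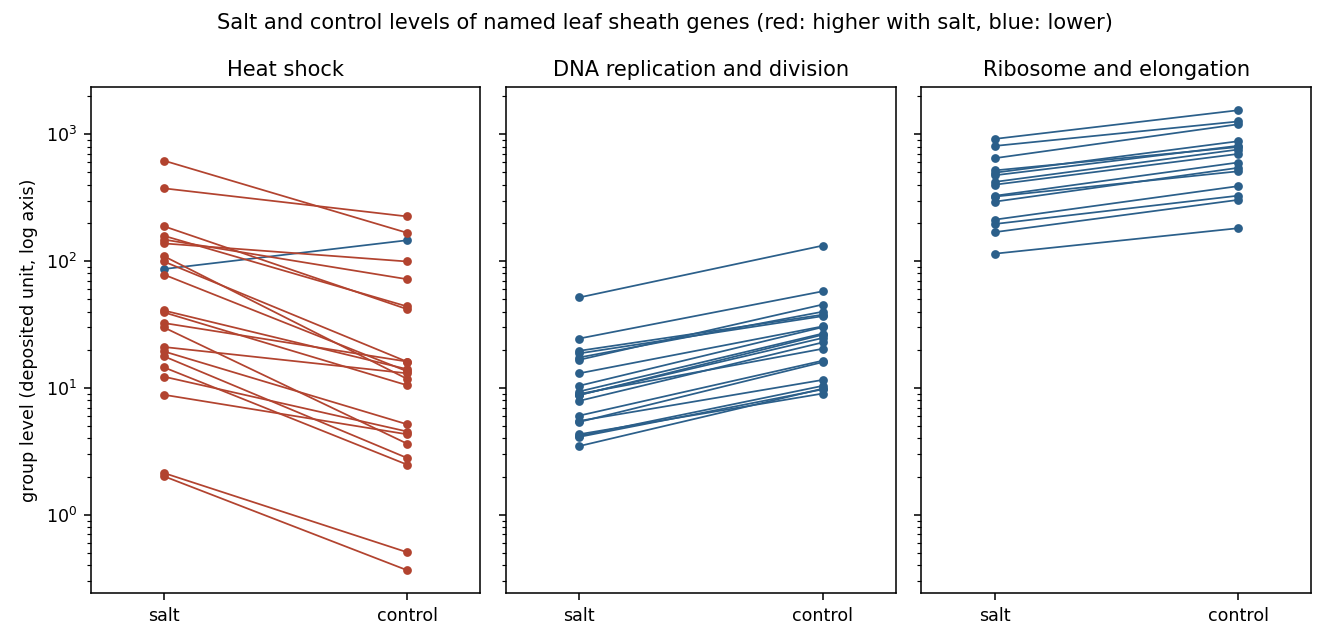
Lines join the salt level (left) and the control level (right) of each named leaf sheath gene on a log axis, in the deposited unit. The 15 genes of the ribosome and elongation have control levels from 181.7 for RPL10A to 1547 for RPS21, and their lines run nearly parallel, while those of the heat shock genes differ in slope.

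The listed abscisic acid and dehydration genes were all higher in the sheath, and the other members of these lists have no value here. The abscisic acid list had 9 of 33 members listed (27.3%, against 6.25% of all genes tested). All 9 were higher, against 45.6% of all listed genes, and their median change was 1.08. They covered opposing steps of the pathway. ZEP, an enzyme of abscisic acid synthesis, was at 117.9 with salt and 66.5 in control (change 0.82, standard error 0.15, from the authors' deposited table), and ABA8OX2, which breaks the hormone down, at 7.58 with salt and 2.97 in control (change 1.11, standard error 0.25, from the authors' deposited table). The phosphatases that restrain the signal, PP2C08, PP2C09 and PP2C49, changed by 1.21, 1.08 and 0.89, and the kinases that pass it on, SAPK1 and SAPK6, by 1.16 and 0.66. Of 10 LEA and dehydrin genes 4 were listed, all higher. RAB21, a dehydrin, was at 64.2 with salt and 1.51 in control (change 4.70, standard error 0.36, adjusted p = 1.0e-47, from the authors' deposited table). For LEA3-1 the authors' deposited table gave 40.2 with salt and 0.078 in control, and a standard error of 0.86. Its change of 5.26 depends on the 1 that was added, since the tested fold change, the statistic times its standard error, was 8.71. RAB16B and RAB16C, neighbours of RAB21, changed by 3.32 and 2.63.

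Genes of sugar and starch moved in both directions. Of 31 list members 13 were listed (41.9%, against 6.25% of all genes tested), 10 higher and 3 lower. SUS1, a sucrose synthase with the highest level of the 13, was at 884.3 with salt and 1754 in control (change -0.99, standard error 0.17, adjusted p = 9.5e-07, from the authors' deposited table), while SUS4, of the same family, was at 37.3 with salt and 24.8 in control (change 0.57, from the authors' deposited table). The cell wall invertases, which split sucrose outside the cell, were also divided, with CIN2 at 8.82 with salt and 27.9 in control (change -1.56, standard error 0.23, from the authors' deposited table) and CIN1 at a change of 0.59. The sugar exporters SWEET15 and SWEET13 changed by 3.22 and 0.74 and SWEET11 by -1.04. SWEET15 was at 26.195 with salt and 1.93 in control (standard error 0.27, adjusted p = 4.0e-40, from the authors' deposited table). The starch enzymes SSI and SBE1, a starch synthase and a branching enzyme, changed by 0.69 and 0.68. TPP1, which makes trehalose from its phosphate, changed by -0.99.

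Enzymes that remove reactive oxygen had 7 of 20 members listed, 7 of 7 higher, with a median change of 0.77. The ascorbate peroxidase gene APX2 was at 992.0 with salt and 723.1 in control in the authors' deposited table, and its change of 0.46 was the smallest in the whole list of 1998. APX8, a chloroplast form, changed by 0.94, the superoxide dismutase gene SODCC2 by 0.57, the thioredoxin gene TRXH1 by 0.62 and the alternative oxidase gene AOX1A by 1.18. All listed photosynthesis genes were higher, 3 of 13 members of the list and 2 of 3 that were added after the values had been seen. ALDP, the chloroplast aldolase, was at 2868 with salt and 1520 in control (change 0.92, standard error 0.19, adjusted p = 3.1e-05, from the authors' deposited table). The ferredoxin gene ADI1 stood at 2858 with salt and 1799 in control (change 0.67, standard error 0.17, adjusted p = 0.001, from the authors' deposited table). GLO1, of photorespiration, changed by 0.83 and CHLH, of chlorophyll synthesis, by 0.52. For the blade, the authors' deposited table lists 10 of the 13 list members, and 10 of 10 were lower. Most of these are not the genes listed in the sheath. Of the 13, only GLO1 and CHLH were listed in both tissues, with blade log2 fold changes of -0.24 and -0.78.

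Jasmonate and other signalling genes were lower in part. All 4 listed jasmonate genes of 17 (23.5%) were lower. For comparison, 6.25% of all genes tested were listed, and 54.4% of the listed genes were lower. The synthesis genes AOS2 and AOS1 changed by -1.78 and -0.95, and the repressors JAZ9 and JAZ13 by -1.16 and -0.96. AOS2 was at 3.63 with salt and 14.9 in control (standard error 0.26, adjusted p = 2.1e-12, from the authors' deposited table). All 3 listed WRKY genes of 14 (21.4%) were lower, among them WRKY71 (-0.63) and WRKY24 (-0.83). The kinase gene MPK3, of stress and defence signalling, was at 81.4 with salt and 157.2 in control (change -0.94, standard error 0.17, from the authors' deposited table). On the list of 25 transcription factors of stress, 7 genes rose and 4 fell. The 7 include 5 of the heat shock factors above. Among the others, NAC5 changed by 0.65, MYB4 by -1.18 and BHLH148 by -0.90. Of the wider hormone and growth list, 2 of 35 members (5.71%) were listed, no more than the 6.25% of all genes tested. They were the cytokinin oxidase gene CKX4, with a change of 0.87, and 1 other gene that was lower.

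Transport genes moved in both directions, and between 14.3% and 17.6% of the members of each list below were in the table, against 6.25% of all genes tested. Of 21 ion transport genes 3 were listed. The sodium transporter gene HKT1;3 was higher, at 11.2 with salt and 4.04 in control (change 1.27, standard error 0.26, adjusted p = 3.7e-07, from the authors' deposited table). The potassium uptake genes AKT1 and HAK1 were lower, with changes of -0.93 and -0.85. Of 14 aquaporins 2 were higher, the plasma membrane gene PIP1;3 (1.14) and the vacuolar gene TIP1;2, at 248.8 with salt and 124.0 in control (change 1.0, standard error 0.19, from the authors' deposited table). Of 33 metal genes 2 were higher and 3 lower. NAAT1, of the synthesis of iron chelators, was at 3.65 with salt and 19.9 in control (change -2.17, standard error 0.27, adjusted p = 6.6e-17, from the authors' deposited table), and the transporter genes YSL2 and NRAMP5 changed by -0.96 and -0.92. All 3 listed genes of 17 in nitrogen and phosphorus use were higher, among them the nitrate reductase gene NIA1 (1.07) and the ammonium transporter gene AMT1;1 (0.83).

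The remaining lists had 1 or 2 members listed, or none. The lectin gene SALT, named for its response to salt in rice, was at 443.8 with salt and 113.2 in control (change 1.96), with a standard error, 0.50 by the authors' deposited table, that was wide for its level. The expansin gene EXPA2, which loosens cell walls, changed by 0.86 and was the 1 listed member of 20 (5.0%, against 6.25% of all genes tested). The phenolic genes CHS1 and 4CL5, 2 of 10 (20.0%), changed by 0.84 and -0.84. The clock gene CCA1, 1 of 15 (6.67%, near the share of all genes tested), changed by 0.81. CYP99A3, of diterpenoid defence compounds, was near the floor at 0.048 with salt and 1.40 in control in the authors' deposited table. None of the 5 chlorophyll breakdown genes and none of the 5 fermentation genes was listed. Over the 26 lists, 91 of 383 members (23.8%) were listed, 58 higher and 33 lower, against 6.25% of all genes tested. The lists were chosen with earlier results of these data known, so nothing is read from that share.

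The direction of the sheath response varied with expression level. Among 191 genes with a mean level of 300 or more, 48 were higher and 143 lower (25.1% higher, 95% exact binomial interval 19.1% to 31.9%). From 100 to 300 the share was 34.9% of 272 genes (95 higher, 177 lower). It was near the 45.6% of the whole list in the 3 classes between 3 and 100, with 44.6%, 50% and 49.7%. From 1 to 3 it was 63.6% of 110 genes, and under 1 it was 76.7% of 30 genes (23 higher, 7 lower, interval 57.7% to 90.1%). The intervals cover counting error only. Of the 143 lower genes at 300 or more, 13 were the ribosomal and elongation genes above. Since the unit is not named, it is not certain that levels of different genes are on 1 scale per length.

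Levels were also summed, though those of different genes may not be on 1 scale per length. The 1087 lower genes added up to 90992 with salt and 163639 in control. The 911 higher genes added up to 106381 with salt and 58863 in control. The direction of each of these sums is fixed by how the genes were grouped. All listed genes together had 197373 with salt and 222502 in control. The genes at 300 or more accounted for most of this, at 113500 with salt and 131340 in control. Of single genes, Os08g0200300 had the highest level among those higher, 7706 with salt and 4678 in control (change 0.72, from the authors' deposited table), and Os08g0524501 the highest among those lower, 974.8 with salt and 1903 in control (change -0.96, from the authors' deposited table).

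The size of the changes and the precision also varied with level. The median standard error was 0.80 under a level of 1, 0.27 from 3 to 10, 0.18 from 30 to 100 and 0.15 at 300 or more. Across the 1998 genes the Spearman correlation of mean level with standard error was -0.82, and with the absolute change -0.41, both given as descriptions across genes that are not independent. Small values of the tested fold change were listed at high levels only. The smallest absolute value of the tested fold change was 2.21 under a level of 1, 0.68 from 3 to 10 and 0.48 at 300 or more. The 1 added to each level worked against this at the low end: the change was a median of 0.24 of the tested fold change under a level of 1, 0.60 from 1 to 3, 0.85 from 3 to 10 and 1.02 at 300 or more. Rises of at least 1 made up 88.6% of the higher genes from 1 to 3 and 12.5% at 300 or more. Falls of at least 1 made up 53.7% of the lower genes from 3 to 10 and 6.29% at 300 or more. In the middle range, 10 to 30, the median rise was 1.0 and the median fall -0.92. A level of 0 was listed in control for 6 genes and with salt for 2, with standard errors from 1.49 to 1.73, and no fold is given for them.

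**Figure D4:**
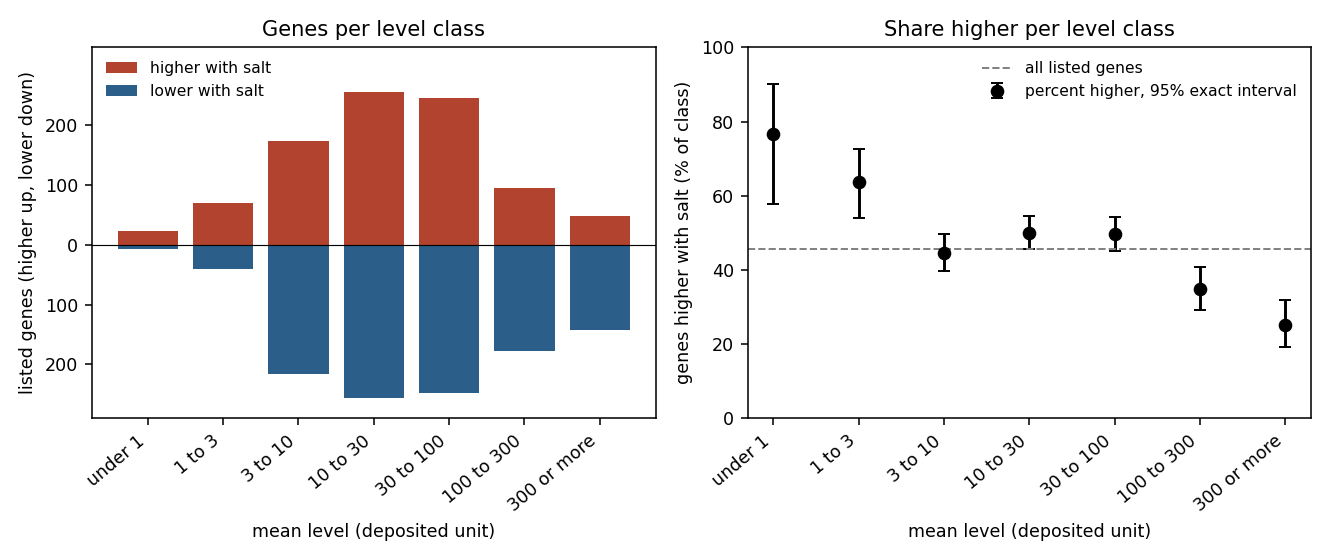
Left, listed leaf sheath genes per class of mean level, higher with salt drawn upward and lower drawn downward; right, the percent higher in each class with its 95% exact binomial interval. The share falls from 76.7% under a level of 1 to 25.1% at 300 or more, and the dashed line marks 45.6% for all listed genes.

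Over the 12 chromosomes the balance of higher and lower genes stayed close to that of the whole list. Identifiers gave a chromosome for 1995 genes. The share higher ran from 41.7% of 115 genes on chromosome 12 to 55.6% of 108 genes on chromosome 11, and 11 of the 12 exact 95% intervals held the overall 45.6%. The exception was chromosome 11, whose interval of 45.7% to 65.1% starts just above it, with no allowance made for looking at 12 chromosomes. Chromosome 11 held 60 higher and 48 lower genes, and chromosome 10 held 50 and 49. On the other 10 chromosomes lower genes were the more numerous. That did not hold for the larger changes. With a change of at least 1 required, higher genes outnumbered lower ones on 10 of the 12 chromosomes, from 33 against 14 on chromosome 11 and 61 against 49 on chromosome 1 to 20 against 19 on chromosome 9, and the counts were equal on chromosomes 8 (22 each) and 12 (24 each). Rises of at least 2 numbered 15 of 273 listed genes on chromosome 1, 11 of 310 on chromosome 3, 10 of 108 on chromosome 11 and 8 of 115 on chromosome 12. RAB21, RAB16B, RAB16C and the gene with the highest change are all on chromosome 11. The 4 falls of at least 2 were on chromosomes 2 (1 gene), 10 (2 genes) and 12 (1 gene).

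The number of listed genes per chromosome varied more than their direction. Against the protein-coding genes that RefSeq annotates on another assembly of the species, chromosome 3 had 8.90 listed genes per 100, the most of the 12, and chromosomes 6 and 11 had 5.71 each, with 6.82 over all. On chromosome 3 there were 3.82 higher and 5.08 lower genes per 100, and on chromosome 11 there were 3.17 and 2.54. The median level of listed genes also varied, from 14.3 on chromosome 10, 15.7 on chromosome 11 and 17.2 on chromosome 12 to 42.2 on chromosome 8. Whether the share higher on chromosomes 10 and 11 goes with their low levels was not tested. With locus numbers cut into 5 equal parts, the last held 36.6% of listed sheath genes and the middle one 8.07%. The blade list was spread in the same way, with 36.4% and 8.83%, so the sheath list did not stand apart in this. Locus numbers are labels that are not evenly used, so a part with few listed genes may hold few genes at all. The share of all genes in each part was not worked out. Nothing is therefore read from these shares about position along the chromosomes.

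**Figure D5:**
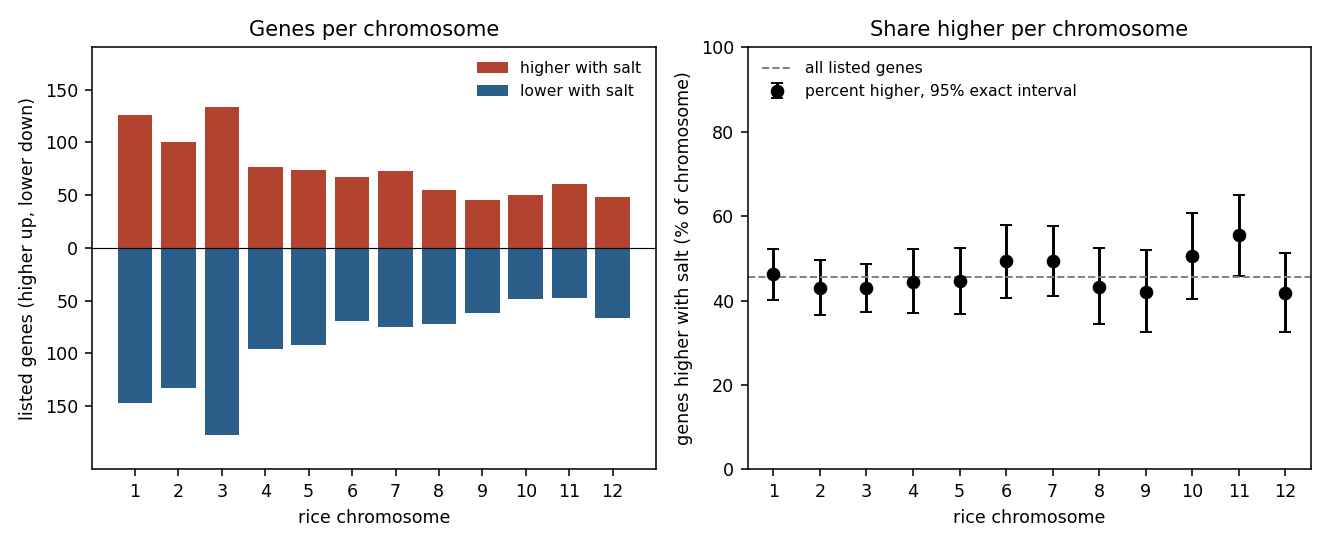
Left, listed leaf sheath genes on each of the 12 rice chromosomes, higher with salt drawn upward and lower drawn downward; right, the percent higher with its 95% exact binomial interval. Chromosome 11 is the highest at 55.6% and chromosome 12 the lowest at 41.7%, and the dashed line marks the 45.6% of all listed genes, which 11 of the 12 intervals hold.

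Close neighbours tended to move together. Of 123 pairs of listed genes whose locus numbers are at most 100 apart, which mostly means adjacent loci, 88 moved in the same direction (71.5%, 95% exact interval 62.7% to 79.3%). Of these, 46 pairs were both higher and 42 both lower. From 100 to 500 apart the share was 57.4% of 326 pairs, and for pairs over 5000 apart it was 45.4% of 368 (interval 40.2% to 50.6%). Whether the authors counted reads by strand is not given in the sources used here, so overlapping neighbours that share reads cannot be told apart from neighbours that changed alike. The same holds for neighbours that are close copies, which were not identified here. Pairs share genes with the next pair and are not independent.

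Runs of at least 4 listed genes with gaps of at most 500 in locus number numbered 21 and held 92 genes. In 3 runs all genes were higher, in 6 all were lower and in 12 the directions were mixed. The longest had 7 genes, on chromosome 1, all higher, with changes from 1.37 to 3.56 and a median of 2.15. A run of 5 on chromosome 4 was also all higher, with changes from 0.71 to 1.76. It holds the chitinase genes CHT4 and CHT5, enzymes that cut fungal cell walls. CHT4 was at 142.9 with salt and 41.5 in control (change 1.76, standard error 0.17, adjusted p = 4.1e-23, from the authors' deposited table), and CHT5 at 73.6 with salt and 33.6 in control (change 1.11, standard error 0.19, from the authors' deposited table). These 2 genes were named after their values had been seen. On chromosome 12 a run of 4 had 3 genes with changes of 3.25 to 4.16 beside 1 gene at -0.71.

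The third run with all genes higher, 4 genes on chromosome 2, had changes from 0.53 to 1.20. Of the 6 runs with all genes lower, the deepest was on chromosome 6, with 4 genes between -1.36 and -1.53, and another run on chromosome 2, of 5 genes, lay between -0.85 and -1.22. The run on chromosome 3 that starts with EF-1-alpha had 4 genes between -0.56 and -0.69. Whether the members of this or any other run are close copies that share reads was not checked. Mixed runs held members of the groups above side by side. One on chromosome 1 held RPL5B, RPL5A and the kinase gene CDKB1, all lower, with 1 further lower gene and 1 at 0.78. Another on chromosome 6 held the starch branching gene SBE1 (0.68) beside the cyclin gene CYCB2-2 (-1.45).

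Set beside the blade, the sheath list was shared mainly in its rises. Of the 1998 sheath genes 794 were also in the authors' deposited blade table, 39.7% of the sheath list and 17.2% of the 4623 blade genes. Of 911 higher sheath genes 570 (62.6%) were listed in the blade, 468 of them higher there too. Of 1087 lower sheath genes 224 (20.6%) were listed in the blade, of which 47 were lower there and 177 higher. Over all 794 shared genes 645 were higher in the blade and 149 lower, against 2392 and 2231 in the whole blade list. Most shared genes were thus higher in the blade whichever way they went in the sheath. Among the 87 sheath genes that rose by at least 2, 69 were listed in the blade and 65 of these were higher there, whereas 30 of the 346 genes that fell by at least 1 were listed there. At levels of 300 or more 97 sheath genes were shared and 15 had the same direction. The overlap is a count and was not tested, and levels of the 2 tables are not on 1 scale.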

How the data were processed

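RNA sequencing of 2 salt and 2 control leaf sheath samples was used, with groups from titles and characteristics. Total RNA went into an mRNA library kit, per the labels' protocols. The submitters' processing notes name HISAT and the build mm10, a mouse build that cannot belong to rice identifiers. Which build, annotation, counter and test were used is not stated in the sources at hand.

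Per the file headers, the deposited sheath table gives a log2 fold change, a level (signal of unnamed unit) per group, a standard error, a statistic (both handled as a score), and the raw and adjusted p-value. The deposited log2 fold change equals the ratio of levels with 1 added within 0.0014. The deposited blade table gives the authors' log2 fold change, mean TPM, FPKM and a q-value per gene. Its read counts are estimated counts that the authors averaged over a group. It served for the overlap of genes and 1 check of unit: over 628 shared genes with control levels over 1, over 3 TPM and over 30 reads, log2 sheath level over blade TPM had a slope of -0.41 on log2 reads per TPM (0 for a value per length, 1 for reads).

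No new test was made. Changes, counts, medians, runs and 95% exact (Clopper-Pearson) intervals, which cover counting error only, were computed with Python 3.11.15, pandas 2.3.3, numpy 2.4.6 and SciPy 1.17.1, and drawn with matplotlib 3.10.9. The number of tests is adjusted p times rank over p for 1473 rows with adjusted p under 0.001. The estimate and the search for runs were tested on simulated data.

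Gene names are not in the files. Of 475 pairs recalled from general knowledge, 372 names occurred once in RefSeq's table (ASM3414082v1) on the chromosome the identifier states. 1 more was dropped for its order along the chromosome, and genes are named only from the 371 left, of which 116 were listed. Named genes are members of 26 lists and of 9 added lists that passed this check, plus, by identifier, the extremes of change and level. The lists and the comparison were chosen with earlier results of these data known. The 9 added lists were made after the values had been seen. The table held 3 identifiers of another form. They enter all counts but those by chromosome.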

Additional observations from a re-analysis of the deposited data

How the results depend on the processing

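The counts of higher and lower genes and of changes of at least 1 stayed within 1.5 times with 1 replaced by 0.1, with statistic times standard error as the change, with adjusted p up to 0.001 and with a mean level of at least 1. The counts of higher and lower genes did so too with zero rows and other identifier forms left out and with levels rescaled by the median offset of -0.02 on the log2 scale. For 15 of the gene lists, counts stayed within 1.5 times with adjusted p up to 0.001 and with statistic times standard error, both chosen after seeing the data. With the deposited log2 fold change as listed, an alternative added after the data were seen, 416 genes rose and 346 fell by at least 1. Of 134 alternative values over 53 results, 111 stayed near the reported value and 23 moved. No sign could change. The value added to the levels leaves the direction of each gene as it was. Statistic times standard error had the sign of the change in every gene, and the offset of -0.02 was smaller than any change. Under these settings the counts of higher and lower genes, over all genes and per list, were therefore fixed in advance. Classes by the control level moved the share higher most: 96.0%, 85.6%, 58.8%, 42.9%, 42.1%, 27.6% and 15.9% from the lowest to the highest class, a steeper slope that follows in part from sorting on 1 side of the ratio. By the higher of the 2 levels the class of 100 to 300 had 42.1% higher. With the statistic times standard error, the median change under a level of 1 was 3.67 among higher and -4.29 among lower genes, and from 1 to 3 it was 2.54 and -1.51. With 0.1 added in place of 1 these medians were 2.70 and -2.79, and 2.31 and -1.48. With an absolute change of at least 1 required, the share higher was 55.5%, 51.4%, 51.8%, 60.3% and 70.2% on chromosomes 1, 2, 3, 7 and 11. Runs numbered 5 with gaps of at most 200 in locus number and 62 with gaps of at most 1000, so their number rests on the gap allowed. No paired analysis was possible because the table holds 1 value per group and no value per sample, and for the same reason no sample could be left out in turn. Sheath library depth is unknown, which leaves low levels without a floor.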
